A study of Mus musculus with 2 samples.

Results

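The genes described here are 10 brakes on mitogen-activated protein (MAP) kinase signalling in mouse pituitary cells: the dual-specificity phosphatases Dusp1, Dusp2, Dusp4, Dusp5, Dusp6 and Dusp10, the Sprouty genes Spry1, Spry2 and Spry4, and the Sprouty-related gene Spred1. They were chosen by name, and the symbols were matched to the Ensembl identifiers of the count table through the gene annotation. All 10 were found among the 47069 genes of the table and among the 16504 genes that averaged 1 CPM or more over both libraries, which are called the genes tested. CPM is the count of a gene as a share of all counts of its library, scaled in the usual way. Poly(A) RNA was sequenced from 2 bulk samples of acutely dissociated pituitary cells, one stored in RNA-Best, a stabilizer meant to keep single cells whole, and the other in RNAlater, an established RNA stabilizer. Both samples came from randomly cycling C57BL/6 females aged 10 to 12 weeks, whose glands were taken apart with collagenase followed by pancreatine. Each sample pooled 500000 to 700000 cells from 5 pituitaries, has no other treatment or genetic change named in its labels, and was placed in its stabilizer at once. With 1 library for each stabilizer there was no replicate and no test. A difference between stabilizers cannot be told apart from a difference between the animals used or between library preparations.

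MAP kinases relay signals from hormone and growth factor receptors to the nucleus through a chain of kinases, in which Ras and Raf lead to ERK, and parallel chains lead to JNK and p38. Dual-specificity phosphatases of the MAP kinase class remove the activating phosphates from these kinases, whereas Sprouty and Spred proteins act further up, between the receptor and Raf. Many of these genes are transcribed in response to the pathway they restrain, so that they form a negative feedback loop. In the pituitary the ERK branch is used by gonadotropin-releasing hormone and growth factors.

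Promoter sequences are shown for 4 of the genes, because these windows carry, or in one case lack, the elements through which MAP kinase and cyclic AMP signals are known to reach early-response genes. Of the 10 genes, 8 (Dusp1, Dusp2, Dusp5, Dusp6, Dusp10, Spry1, Spry2 and Spred1) matched an entry of the RefSeq promoter table on GRCm38.p6, and the 250 bases before the start site were searched on both strands. Each sequence runs 5' to 3' on the strand of its gene, with matched bases in capitals. The Dusp1 window, at chr17:26508473-26508722 on the minus strand, held the cyclic AMP response element TGACGTCA at bases -143 to -136 from the start site, and its shorter core TGACG at -191 to -187. The Dusp5 window, at chr19:53528895-53529144 on the plus strand, held 2 adjoining CArG boxes, the site of serum response factor, at -82 to -73 and -72 to -63, and the core TGACG on the opposite strand at -55 to -51. The Dusp2 window, at chr2:127335909-127336158 on the plus strand, held the EGR motif GCGNGGGCG at -98 to -90. The Spry2 window, at chr14:105896820-105897069 on the minus strand, held none of the motifs searched. The windows of Dusp6, Dusp10, Spry1 and Spred1, not printed here, held none of them either.
Dusp1: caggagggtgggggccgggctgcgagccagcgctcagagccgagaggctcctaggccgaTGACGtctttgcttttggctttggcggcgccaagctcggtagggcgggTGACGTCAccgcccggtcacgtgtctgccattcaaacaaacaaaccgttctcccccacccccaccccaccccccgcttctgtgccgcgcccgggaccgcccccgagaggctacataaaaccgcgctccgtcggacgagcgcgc
Dusp5: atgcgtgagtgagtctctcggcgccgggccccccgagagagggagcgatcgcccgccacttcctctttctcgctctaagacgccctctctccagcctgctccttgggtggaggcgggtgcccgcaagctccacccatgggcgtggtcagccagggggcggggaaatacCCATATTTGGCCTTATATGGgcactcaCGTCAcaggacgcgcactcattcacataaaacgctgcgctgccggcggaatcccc
Dusp2: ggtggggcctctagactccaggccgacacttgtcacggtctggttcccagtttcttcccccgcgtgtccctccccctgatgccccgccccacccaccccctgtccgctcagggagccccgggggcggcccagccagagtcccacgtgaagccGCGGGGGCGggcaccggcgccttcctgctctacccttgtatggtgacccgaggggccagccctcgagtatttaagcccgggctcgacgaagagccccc
Spry2: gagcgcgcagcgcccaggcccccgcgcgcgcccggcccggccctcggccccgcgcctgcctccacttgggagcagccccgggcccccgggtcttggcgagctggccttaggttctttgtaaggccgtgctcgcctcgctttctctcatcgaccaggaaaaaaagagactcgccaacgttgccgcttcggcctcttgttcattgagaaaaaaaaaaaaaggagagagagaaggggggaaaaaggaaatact
Among 32851 promoters of the same length, the full element TGACGTCA occurred in 1.55%, the core TGACG, which lies at both ends of the full element, in 17.8%, the CArG box in 1.47% and the EGR motif in 4.7%. The AP-1 motif TGANTCA, found in 6.75% of all promoters, and the ETS motif CCGGAAGT, found in 2.88%, were not in the 8 windows. These matches describe letters in a window and were not tested for binding.

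Counts in genes totalled 53915047 for RNA-Best and 44917492 for RNAlater. The hormone transcripts Prl (prolactin) and Gh (growth hormone) took 29.7% of the counts in RNA-Best and 23.2% in RNAlater, which lowers the CPM of all other genes in RNA-Best. The pituitary label was checked against the 7 hormone subunit genes Prl, Gh, Pomc, Cga, Lhb, Fshb and Tshb, which were present in both libraries, with a summed level of 307051 CPM in RNA-Best against 239085 in RNAlater. With Prl and Gh left out of the totals, the median log2 ratio of RNA-Best to RNAlater over the genes tested was -0.06. With them included, and here as elsewhere after adding 0.5 CPM to each value, it was -0.18. It was -0.01 after TMM scaling, which sets the libraries level over the bulk of genes, and the ratios below are read against the value for all genes.

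All 10 brakes had lower CPM in RNA-Best than in RNAlater, against 67% of the genes tested. Their median log2 ratio was -0.47, which was lower than the median of all genes by 0.30 on the log2 scale, and single ratios ran from -0.80 for Spry4 to -0.17 for Dusp1. All 10 counting intervals of the ratio, at 95%, lay wholly below 0, as did those of 51.2% of the genes tested. These intervals and all others given here cover counting error alone, treat reads as independent although PCR copies are not, and hold no variation between animals or libraries. After TMM scaling 9 of the 10 were lower, against 51.4% of the genes tested, and the exception was Dusp1 with a log2 ratio of 0.00090. None was lower by 2-fold or more, a size that 4.99% of the genes tested reached, and none was higher by 2-fold, as 0.273% were. Spry2, Spry4 and Spred1 were lower by at least 1.5-fold, as were 18.8% of the genes tested. The 9 genes other than Dusp1 lay below the median of all genes, and Dusp1 lay at it.

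**Figure D1:**
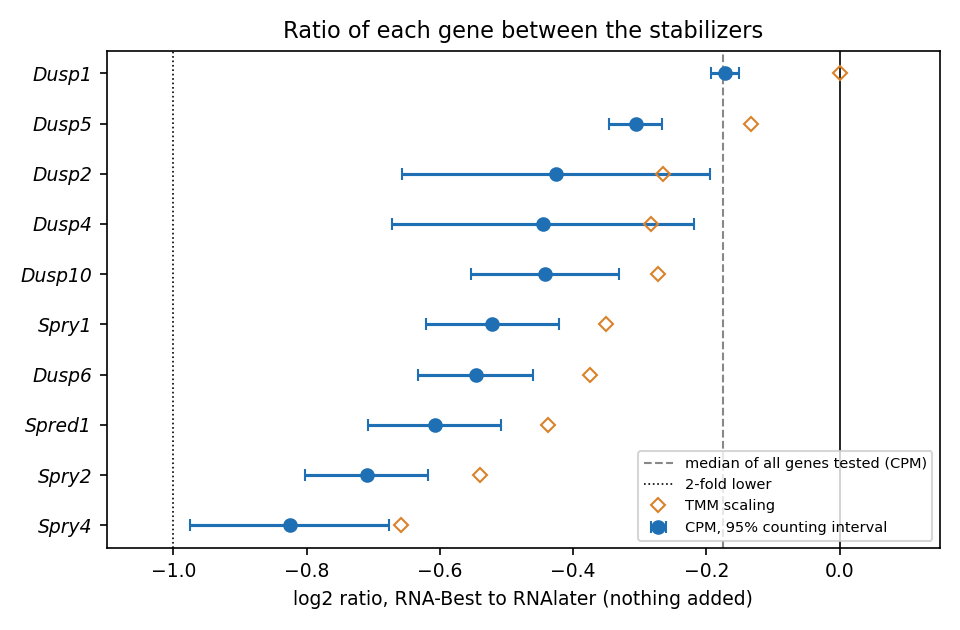
Log2 ratio of RNA-Best to RNAlater for each of the 10 genes, with nothing added to the CPM. Filled points are CPM ratios with their 95% counting interval, open diamonds are ratios after TMM scaling, the dashed line is the median of all genes tested, and the dotted line marks 2-fold lower. All filled points lie left of 0, from Dusp1 at -0.17 to Spry4 at the far left, and only the Dusp1 diamond sits at 0.

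Among the nuclear phosphatases the levels lay far apart (gene coordinates here and below are those of the GENCODE annotation on GRCm38). Dusp1 (ENSMUSG00000024190.6, chr17:26505590-26562128, minus strand), which dephosphorylates p38, JNK and ERK and is a classical immediate-early gene, was at 654 CPM in RNA-Best against 737 in RNAlater, from 35281 and 33119.5 counts. Its log2 ratio was -0.17 (interval -0.19 to -0.15). It was the most abundant of the brakes and ranked 151 among the 16453 genes tested with a known length when levels were divided by transcript length. Dusp5 (ENSMUSG00000034765.6, chr19:53529109-53542431, plus strand), which acts on ERK and anchors it in the nucleus, was at 183 CPM in RNA-Best against 226 in RNAlater. Its log2 ratio was -0.31 (interval -0.35 to -0.27), and it ranked 718 by the same measure. These abundant phosphatases had the ratios nearest to 0 of the 10 genes, but the weakly expressed Dusp2 and Dusp4 came next. Spearman's rho between mean CPM and log2 ratio over the 10 genes was 0.20. Their promoter windows, those of Dusp1 and Dusp5, were the only ones of the 8 with a match to TGACG, which 17.8% of all promoters carry. A link of level or motif to the ratio was not tested.

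Dusp2 and Dusp4, the other nuclear phosphatases, were weakly expressed. Dusp2 (ENSMUSG00000027368.6, chr2:127336159-127338376, plus strand), best known from activated lymphocytes, was at 5.45 CPM in RNA-Best against 7.32 in RNAlater, from 294 and 329 counts, with a log2 ratio of -0.39 (interval -0.66 to -0.19). Dusp4 (ENSMUSG00000031530.6, chr8:34807297-34819894, plus strand), which acts on ERK and JNK, was at 5.68 and 7.73 CPM, from 306 and 347 counts, with a log2 ratio of -0.41 (interval -0.67 to -0.22). Both pairs of values were lower in RNA-Best, and the width of the intervals shows that counts of this size place the ratio only loosely.

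The remaining phosphatases act in or partly in the cytoplasm. Dusp6 (ENSMUSG00000019960.7, chr10:99263231-99267489, plus strand), the cytoplasmic phosphatase specific to ERK and a common readout of growth factor signalling, was at 37.0 CPM in RNA-Best against 54.1 in RNAlater. Its log2 ratio of -0.54 (interval -0.63 to -0.46) was the lowest among the 6 phosphatases. Dusp10 (ENSMUSG00000039384.8, chr1:184013302-184075636, plus strand), which prefers JNK and p38 over ERK, was at 23.3 and 31.7 CPM, with a log2 ratio of -0.43 (interval -0.55 to -0.33). The intervals of these 2 genes overlapped.

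The Sprouty genes encode membrane-associated inhibitors of signalling from receptor tyrosine kinases. Spry1 (ENSMUSG00000037211.12, chr3:37639947-37644598, plus strand) was at 28.0 CPM in RNA-Best against 40.1 in RNAlater, with a log2 ratio of -0.51 (interval -0.62 to -0.42). Spry2 (ENSMUSG00000022114.4, chr14:105891947-105896819, minus strand), which also binds the ubiquitin ligase Cbl, was at 30.9 and 50.5 CPM, with a log2 ratio of -0.70 (interval -0.80 to -0.62). Spry4 (ENSMUSG00000024427.6, minus strand) was at 11.4 and 20.3 CPM, with a log2 ratio of -0.80 (interval -0.98 to -0.68). Spry2 and Spry4 were therefore at 61.1% and 56.4% of their RNAlater CPM, the lowest of the 10 genes, while Spry1 was at 69.7%. Spred1 (ENSMUSG00000027351.14, chr2:117121374-117182279, plus strand), which recruits neurofibromin to switch off Ras, was at 27.0 CPM in RNA-Best against 41.2 in RNAlater, with a log2 ratio of -0.60 (interval -0.71 to -0.51). The median log2 ratio was -0.65 over these 4 genes and -0.40 over the 6 phosphatases. Spred1 (6016 bases) and Spry4 (4755 bases) have the longest transcripts of the 10. Set against the length trend described below, the medians of the 4 genes and of the phosphatases were closer, at -0.39 and -0.29.

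A difference between the log2 ratios of a pair of genes does not depend on how the libraries are scaled, and 12 such pairs were computed without an added value. The ratio of Dusp1 exceeded that of each of the other 9 genes. The difference was smallest against Dusp5, at 0.13 (interval 0.09 to 0.18), and largest against Spry4, at 0.65 (0.50 to 0.80). Against Spry2 it was 0.54 (0.44 to 0.63) and against Dusp6 0.37 (0.29 to 0.46). For the weakly counted Dusp2 the difference of 0.25 had an interval of 0.03 to 0.48. Among the Sprouty genes, Spry1 exceeded Spry2 by 0.19 (0.05 to 0.32) and Spry4 by 0.30 (0.13 to 0.48). The difference between Spry2 and Spry4, 0.12, had an interval from -0.06 to 0.29 and was the only one of the 12 that included 0.

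Levels were compared between genes as CPM per kilobase (kb) of the longest annotated transcript. The order was the same in both libraries, from Dusp1 through Dusp5, Spry2, Dusp6, Spry1, Dusp10, Spred1, Dusp2 and Spry4 to Dusp4. Dusp1 was at 283 CPM per kb in RNA-Best and 319 in RNAlater, Dusp5 at 74.0 and 91.5, and Dusp4 at 2.07 and 2.82. Between these ends, Spry2 was at 14.8 and 24.2 CPM per kb and Dusp6 at 13.2 and 19.3. Neighbours in the order were separated by more than counting error except for Spry4 and Dusp4 in RNA-Best (2.41 and 2.07 CPM per kb) and Dusp2 and Spry4 in RNAlater (4.53 and 4.27 CPM per kb). The order depends in places on the transcript length used: with the union of exons Dusp2 and Spry4 changed places in RNAlater, and with the median transcript length Dusp6 came above Spry2 and Dusp10 above Spry1. The longest annotated Dusp1 transcript, of 2313 bases, is a retained-intron form, and its longest coding transcript has 1990 bases, over which its level per kb would be higher.

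**Figure D2:**
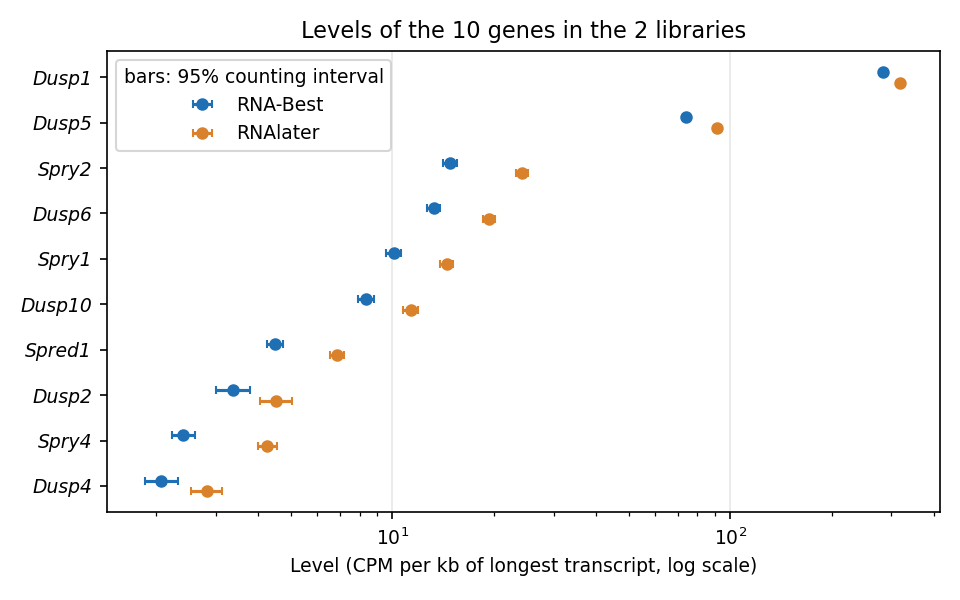
Level of the 10 genes in CPM per kb of the longest transcript, on a log axis, in RNA-Best (blue) and RNAlater (orange), with 95% counting intervals. For every gene the blue point lies left of the orange point, and Dusp1 and Dusp5 stand apart from the other 8 genes in both libraries.

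Summed over the 10 genes, the level was 416 CPM per kb in RNA-Best and 498 in RNAlater. Dusp1 made up 68.1% of that sum in RNA-Best and 64.0% in RNAlater, while Dusp5 made up 17.8% and 18.4%. The 6 phosphatases together made up 92.4% and 90.0%, and the 3 Sprouty genes with Spred1 the other 7.64% and 9.99%. Pituitary cells in both stabilizers thus held mainly Dusp1 transcripts among these brakes, with a somewhat larger share for the Sprouty group in RNAlater. Shares of one sum are tied to each other, so that the larger Dusp1 share in RNA-Best and the smaller Sprouty share are one observation.

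**Figure D3:**
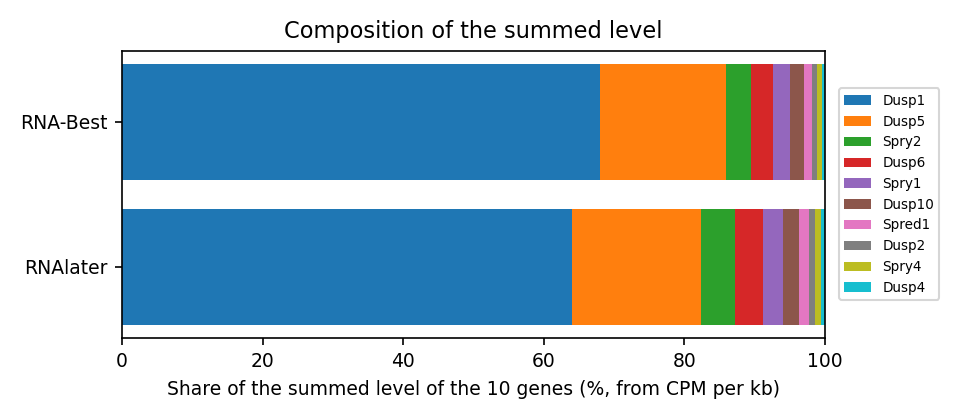
Share of each gene in the summed level of the 10 genes (percent, from CPM per kb) in each library. Dusp1 fills 68.1% of the bar in RNA-Best and 64.0% in RNAlater, and Dusp5 fills most of the rest.

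Across all genes tested, the log2 ratio was lower for longer transcripts (Spearman's rho across genes -0.638, genes not being independent replicates). The medians were -0.09 for transcripts of 2 to 3 kb, -0.40 for 4 to 6 kb and -0.65 for 6 to 10 kb. Among the 10 brakes rho with length was -0.564, a description over 10 genes of the same 2 libraries. Each gene was therefore set against a smooth LOWESS trend of the ratio on length. All 10 lay below it, where 48.9% of the genes with a length lay, by a median of -0.34 on the log2 scale.

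Spry2, with a transcript of only 2087 bases, lay furthest below the trend, at -0.66, and 1.93% of the genes tested within 10% of its length had a lower ratio. Dusp2 followed at -0.43 with 8.76%, then Dusp6 at -0.40 with 10.6%, Spry4 at -0.39 with 13.0% and Spry1 at -0.38 with 11.4%. Dusp1 lay at -0.10, and 33.7% of the genes of its length had a lower ratio. Spred1 has the longest transcript, 6016 bases, and lay nearest to the trend at -0.05, with 43.3% of genes of its length lower. Which genes lay near the trend depended on the length used. With the median transcript length in place of the longest, 9 of the 10 genes lay below the trend, with Spry2 at -0.44, Spry4 at -0.21, Spred1 at -0.11 and Dusp1 above it at 0.03. With the union of exons all 10 lay below, with Spry2 at -0.71, Spry4 at -0.54, Spred1 at -0.20 and Dusp1 nearest at -0.04. Spry2 lay furthest below under each of the 3 lengths.

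**Figure D4:**
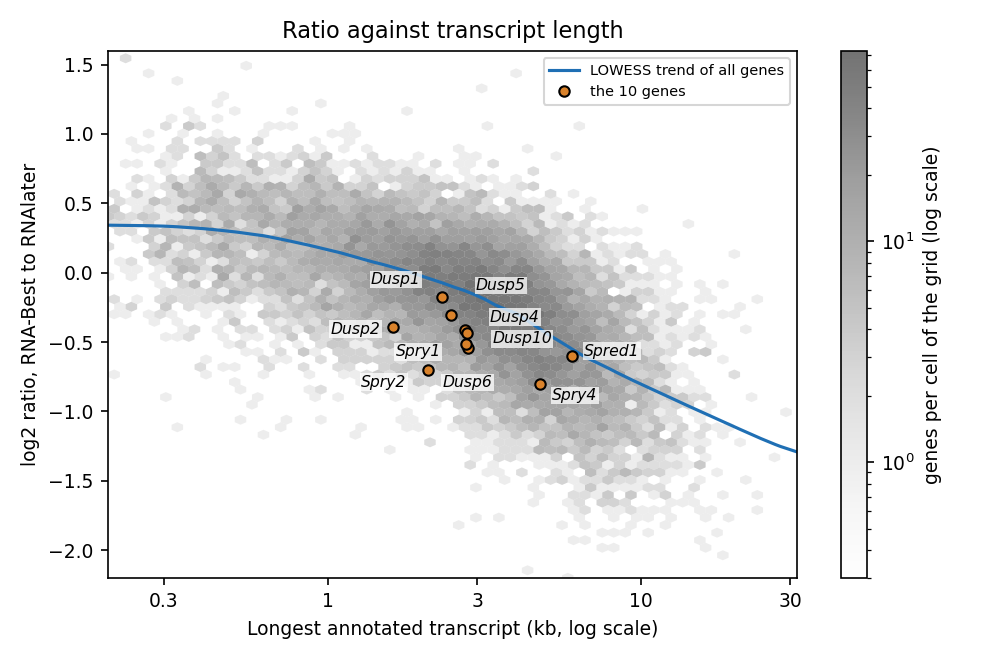
Log2 ratio of RNA-Best to RNAlater against the length of the longest annotated transcript (kb, log axis) for the genes tested, shaded by the number of genes in each cell of the grid, with the LOWESS trend in blue and the 10 genes as orange points. All 10 points lie below the line, with Spry2 furthest from it and Spred1 closest for this measure of length.

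Of the related genes, the other MAP kinase phosphatases tested, Dusp7, Dusp8 and Dusp16, were all lower in RNA-Best, as were 67% of the genes tested. Their median log2 ratio was -0.58. The most abundant, Dusp8, which acts on JNK and p38, was at 60.3 CPM in RNA-Best against 92.0 in RNAlater (log2 ratio -0.60), and Dusp9 had 0 counts in both libraries, which allows up to 0.0556 and 0.0668 CPM. The atypical dual-specificity phosphatases, which lack the MAP kinase binding domain, were divided: 5 of the 11 tested were lower and 6 higher, with a median of 0.03. Their most abundant gene, Dusp26, was at 133 CPM in RNA-Best against 108 in RNAlater (log2 ratio 0.31), and the ends of that list were Dusp28 at 0.38 and Dusp18 at -0.51. Both tested relatives of the Sprouty group were lower, Spred2 at 13.0 and 22.9 CPM (log2 ratio -0.79) and Spred3 at -0.43. Spry3, at 0.26 and 0.51 CPM, was below the level required.

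Other feedback inhibitors and Ras brakes were lower in 12 of 14 cases (11 after TMM scaling), against 67% (51.4%) of the genes tested. Their median log2 ratio was -0.46. The ubiquitin ligase gene Cbl (-1.33), the feedback inhibitor gene Il17rd (-1.25) and the Ras inactivator Nf1 (-1.13), the partner of Spred1, were at least 2-fold lower. So were 4.99% of the genes tested. Rgs2, a regulator of G protein signalling and the most abundant of the list, was at 551 CPM in RNA-Best against 509 in RNAlater (log2 ratio 0.11), and the highest ratio was that of the Raf inhibitor gene Pebp1 (0.57). All 12 transcripts listed as dependent on ERK were lower, 4 of them being Dusp and Sprouty genes described above. The 8 others had a median of -0.63, among them the cyclin gene Ccnd1 at 92.6 and 141 CPM (log2 ratio -0.60), with Phlda1 at the upper end (-0.30) and Epha4 at the lower (-1.05).

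Along the rest of the pathway, receptors upstream of MAP kinase had a median of -0.77, with all 16 lower in CPM and 12 after TMM scaling. All counts lower in this paragraph stand beside 67% of the genes tested in CPM and 51.4% after TMM scaling, and 2-fold lower ratios beside 4.99%. Kdr (-1.63), Pdgfra (-1.61), Igf1r (-1.12), Fgfr3 (-1.07) and Erbb2 (-1.02) were at least 2-fold lower, Fgfr1 was the most abundant, at 73.7 CPM in RNA-Best against 124 in RNAlater, and Trhr was highest at -0.03. The Ras to ERK core was lower in 16 of 20 genes (11 after TMM scaling), against 67% and 51.4% of the genes tested, with a median of -0.28, from the scaffold gene Ksr1 (-1.06) to Hras (0.61), and with Araf at 172 and 165 CPM. All 17 JNK and p38 kinase genes were lower in CPM and 15 after TMM scaling, with a median of -0.41, from Map3k1 (-0.84) to Map2k6 (-0.03), and with Mapkapk2 (-0.29) most abundant. The 16 early transcription targets were all lower in CPM and 14 after TMM scaling, with a median of -0.63. Among these, Fos was at 2256 CPM in RNA-Best against 3213 in RNAlater (log2 ratio -0.51), Ier2 was at -0.03 and Egr3 at -1.03. Of the ERK-regulated transcription factors, 9 of 10 were lower, with a median of -0.67, from Ets1 (-1.17) to Elk1 (0.01). Srf, the factor that binds the CArG box printed for Dusp5, was at 145 and 193 CPM (log2 ratio -0.41). These lists differ in transcript length, and set against the length trend their medians took another order. The early targets were lowest at -0.44, followed by the 8 other ERK-dependent transcripts at -0.40, the ERK-regulated factors at -0.33, the receptors at -0.28, the JNK and p38 kinases at -0.15 and the other feedback inhibitors at -0.11. The Ras to ERK core lay at the trend, with a median of 0.02, and the 10 brakes at -0.34.

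**Figure D5:**
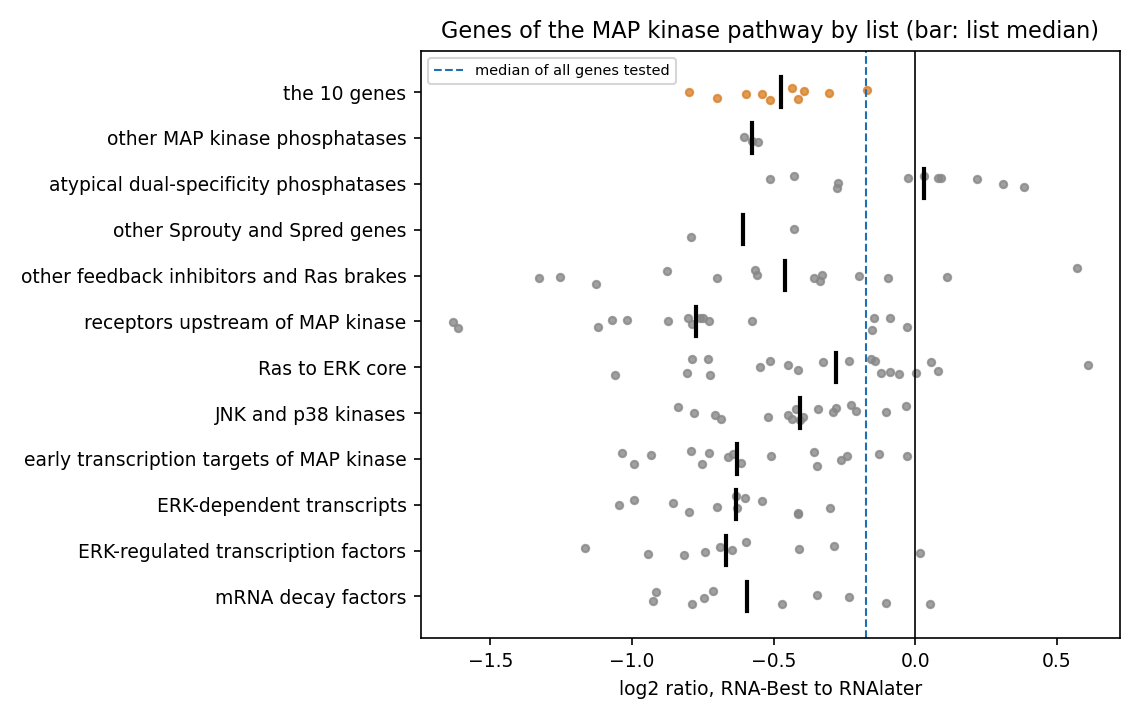
Log2 ratio of RNA-Best to RNAlater for single genes of each MAP kinase list (points) with the list median (black bar), the 10 genes in orange, and the median of all genes tested as a dashed line. Without regard to length, the list medians lie left of the dashed line except that of the atypical phosphatases, at 0.03.

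In a bulk sample, fewer cells of a type and less RNA per cell cannot be told apart, and markers of several cell types moved along with the brakes. The counts lower given here stand beside 67% of the genes tested in CPM and 51.4% after TMM scaling. Of the endothelial markers 9 of 10 were lower in RNA-Best in CPM and 7 after TMM scaling. Their median log2 ratio was -0.87, with a summed level of 430 CPM in RNA-Best against 813 in RNAlater. All 10 pericyte and fibroblast markers were lower (median -0.75, summed 608 and 815 CPM), as were all 9 stem and folliculostellate markers (median -0.52, summed 955 and 1333 CPM) and all 8 posterior lobe markers (median -0.54, summed 197 and 321 CPM). After TMM scaling 9, 8 and 8 markers of these 3 lists were lower. Macrophage markers were lower in 5 of 10 cases (median -0.09, summed 255 and 233 CPM). In contrast, all 7 hormone genes (median 0.45) and all 5 erythroid genes (median 0.79, summed 3200 and 1130 CPM) were higher in RNA-Best. Their median transcript lengths were 0.895 and 0.699 kb. Those of the lower lists ran from 1.96 kb (stem and folliculostellate) to 5.02 kb (pericyte and fibroblast). Set against the length trend, the medians were 0.32 for hormone, 0.70 for erythroid and 0.11 for macrophage genes. They were -0.66 for endothelial, -0.43 for pericyte and fibroblast, -0.51 for stem and folliculostellate and -0.20 for posterior lobe markers. No marker was at 0 in either library. The part of these markers, or of transcript length, in the lower level of Sprouty and Dusp transcripts was not tested.

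The counts of 8 of the 10 genes were whole numbers in both libraries, and those of Dusp1 and Spry2 were not. How their fractions arose is not given in the sources used here, and no annotated gene overlapped Spry2. The exons of Dusp1 overlap those of Ergic1 on the opposite strand by 11 bases, and Ergic1 itself was counted 7077 and 5463 times. Spry1 overlaps the opposite-strand gene Gm42922 over 710 exon bases, with 0 and 5 counts there. Dusp5 overlaps the antisense gene AC137853.2 over 547 exon bases, for which no value is given here. The strand setting of the counting is not given in the sources used here. Whether reads of Dusp5 or Spry1 were kept apart from those of their antisense partners within these stretches is therefore not known.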

How the data were processed

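Poly(A) RNA of 2 dissociated pituitary samples, grouped by the stabilizer in the labels (1 library each), was analysed. The authors deposited 1 table of estimated counts per Ensembl gene, not normalized, in which 35.4% (RNA-Best) and 34.9% (RNAlater) of values above 0 were not whole. Per the submitters' processing notes, STAR 2.5.1b, featureCounts 1.5.0-p1 and mm10 were used. The option that gave fractions and the strand setting are not given in the sources used here. Levels of overlapping or duplicated genes are therefore uncertain.

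Symbols, coordinates and transcript lengths came from the GENCODE annotation on GRCm38, which matched 46574 of 47069 identifiers. Counts were scaled to CPM by the column totals, 53915047 and 44917492. Ratios were differences of log2(CPM + 0.5), which understates ratios of weakly expressed genes, over the 16504 genes averaging 1 CPM or more. Exact conditional binomial intervals of ratios and exact Poisson intervals of levels, at 95%, were computed from counts rounded to whole numbers with nothing added. Intervals of differences between ratios combined the counting errors of 4 counts. A count of 0 allows up to 3 counts. The length trend was a LOWESS curve with a span of 0.2 (statsmodels 0.14.6). TMM factors (edgeR 4.0.16) and DESeq2 1.42.0 size factors served as alternatives, as did a total without Prl and Gh, pseudocounts of 0.1 and 5 CPM, other filters, other transcript lengths and a 1.5-fold limit. Whole counts had been assumed, and rounding was needed for these steps. With 1 library per group no model was fitted and no p-value is given. The calculations were tested on simulated data.

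The 10 genes and the gene lists were chosen with earlier results of these data known. All 10 genes are described, and from each list the genes with the highest and lowest ratio, the most abundant gene and genes of at least 2-fold difference were eligible to be named. AU-rich nonamers were counted in the whole longest transcript. Promoter windows of 250 bases came from RefSeq on GRCm38.p6. Python 3.11.15, numpy 2.4.6, scipy 1.17.1, pandas 2.3.3, matplotlib 3.10.9 and R 4.3.3 were used.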

Additional observations from a re-analysis of the deposited data

How the results depend on the processing

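No paired analysis was possible because each stabilizer had 1 library, and for the same reason no library could be left out. The count of brakes lower in RNA-Best was 9 with TMM factors and DESeq2 size factors, 8 of the 8 genes left by a filter at 10 CPM, and 10 under the other alternatives. Dusp1 turned to a log2 ratio of 0.00090 with TMM factors and 0.013 with DESeq2 size factors, and the other 66 of 68 alternative values of single genes were below 0. The median log2 ratio of the 10 genes became -0.30 with TMM factors, -0.29 with DESeq2 size factors and -0.35 with a total without Prl and Gh. Relative to all genes, the median became -0.41 when no filter on low values was applied, which adds weakly counted genes to the reference set. Relative to the length trend, it became -0.21 with the median transcript length. A limit of 1.5-fold in place of 2-fold gave 3 genes in place of 0. Of the 32 remaining alternative values of the group results, counts stayed within 1.5 times. Medians moved by no more than the median half-width of the counting intervals of the 10 single genes. No counting error of the group median itself was computed. Depth limits Dusp2 and Dusp4 most, with 294 to 347 counts in a library.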

Other observations

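Early-response transcripts are often short-lived, and their decay is directed by AU-rich elements, whose core nonamer TTATTTATT is bound by the Zfp36 family. Dusp1 was the only one of the 10 brakes with this nonamer in its longest annotated transcript, in 2 copies, and the other 9 had 0. That Dusp1 transcript is the retained-intron form, and whether the copies also lie in its coding transcripts was not examined. At least 1 copy was present in 9.51% of the 16443 genes tested that had a transcript sequence, and at least 2 copies in 2.63%. Genes with a copy had a median log2 ratio of RNA-Best to RNAlater of -0.29, against -0.16 for genes without, and their transcripts were longer, at a median of 4.36 against 2.96 kb. Set against the length trend, the medians were 0.05 and 0.004. Split at 2 copies, the number in Dusp1, they were 0.13 for genes with at least 2 and 0.006 for the others, while Dusp1 lay at -0.10.

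A list of 10 genes covered factors that bind AU-rich elements, and the deadenylase complex with its partners. Of these genes, 9 were lower in RNA-Best in CPM and 8 after TMM scaling. These counts stand beside 67% and 51.4% of the genes tested. The median log2 ratio of the 10 was -0.59. Btg2, a partner of the deadenylase complex and the most abundant of them, was at 1258 CPM in RNA-Best against 1353 in RNAlater (log2 ratio -0.10). The ends of the list were the decay factor gene Zfp36l1, at 42.6 and 81.4 CPM (log2 ratio -0.93), and the deadenylase gene Cnot7 (0.05).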
